A study of Mus musculus with 2 samples.

Results

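The pyruvate dehydrogenase complex, which carries pyruvate from glycolysis into the citric acid cycle, is described here through 8 genes of 25004 that were counted in mouse hearts. They are Pdha1, Pdhb, Dlat, Dld and Pdhx, which encode its subunits, the phosphatase genes Pdp1 and Pdp2, and Map3k15, a kinase gene whose last exons lie on the other strand of Pdha1. The genes were found by their symbols, and they were chosen by their counts in these libraries, since Map3k15 held the highest count of all genes while Pdha1 held few. Those counts and the ratios between the libraries are therefore given as a description, with no test. The hearts of interest came from transgenic mice carrying cardiac myosin binding protein-C (cMyBP-C) without its C0-C1f region, a stretch at the amino terminus of this thick-filament protein, and the control hearts came from non-transgenic mice. All mice were 12 weeks old and of the strain labelled FvB/N. Each group was 1 library made from 3 hearts combined, so no difference has a replicate check and every interval given covers counting error only. The sources used here do not name the promoter that drives the transgene, the number of lines or the sex of the mice.

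In the mitochondrial matrix, the complex converts pyruvate to acetyl-CoA. The E1 enzyme, built of alpha and beta chains, removes carbon dioxide, the E2 enzyme passes the acetyl group to coenzyme A, and the E3 enzyme re-oxidises the lipoyl arm of E2. Kinases switch the complex off by phosphorylating E1 alpha and phosphatases switch it on again, which in the heart sets how much carbohydrate is burned in place of fat. Map3k15, also called ASK3, is a stress-activated protein kinase of another pathway.

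The counts summed to 190824 in the transgenic and 170543 in the non-transgenic library. In CPM, a unit that divides each count by its library total, a single count was worth 5.24 in the transgenic and 5.86 in the non-transgenic library. The most counted heart muscle markers were present in both libraries. Myl2, the ventricular myosin light chain, had 3916 counts in the transgenic and 2405 in the non-transgenic library, and Actc1, cardiac actin, had 1525 and 906. The libraries were made with a kit that keeps strand origin, but the sources used here do not give the strand setting of the counting. Which of the reads counted on Map3k15 and on Pdha1 came from which gene is therefore uncertain. The same gap bears on every gene described here, since the counts and ratios of Dlat, Pdhb, Dld, Pdhx, Pdk4 and the others follow expression only as far as reads were assigned to the right strand, so levels and ratios below are those of counts.

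Map3k15 lies on the plus strand of chromosome X (159988433 to 160123351, GRCm38) and Pdha1 on the minus strand (160122209 to 160138413), and they meet tail to tail. Of the 29 exons of the Map3k15 transcript, the last 3 fall inside the last of the 11 exons of the Pdha1 transcript. The shared bases number 603, which is 13.9% of the 4348 exonic bases of Map3k15 and 21.2% of the 2848 exonic bases of Pdha1. For Map3k15, 251 of them are coding sequence with the stop codon and 352 are 3′ untranslated. For Pdha1, none is coding, since its coding sequence ends nearer to its start. The 30 bases at the end of the Map3k15 coding sequence are printed below as each gene would transcribe them (GENCODE transcripts of GRCm38, chrX:160122970-160122999). The same bases belong to both transcripts. Strand alone tells apart reads that lie wholly within shared bases and cross no splice junction. Capitals mark the Map3k15 stop codon on the plus strand and its complement on the minus strand.
Map3k15, plus strand: agaagacaaatgcaggagtcttcacagTGA
Pdha1, minus strand: TCActgtgaagactcctgcatttgtcttct

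**Figure D1:**
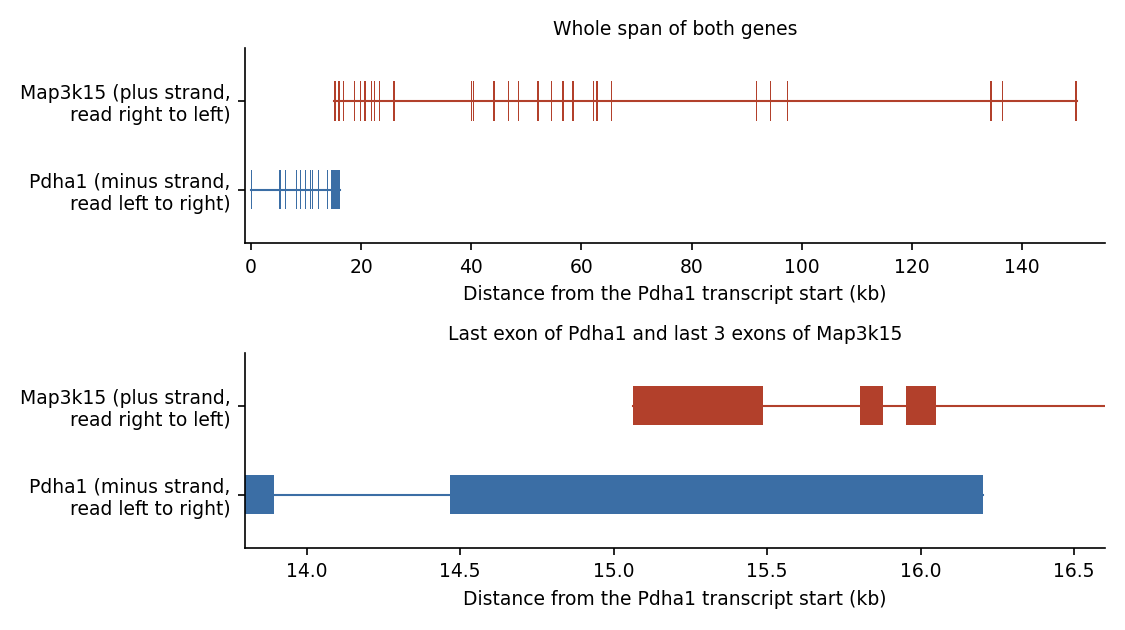
Exons (boxes) of Map3k15 and Pdha1 by distance from the Pdha1 transcript start in kb, over the whole span (top) and at the shared end (bottom). The last 3 exons of Map3k15 lie inside the last exon of Pdha1, and the remaining exons of both genes do not meet.

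Map3k15 was counted far above every gene of the complex in both libraries, with 12037 counts in the transgenic and 11983 in the non-transgenic library. These were 6.31% and 7.03% of all counts. Pdha1, which encodes the E1 alpha chain that the kinases phosphorylate, had 186 counts in the transgenic and 121 in the non-transgenic library. Map3k15 thus had 64.7 times the counts of Pdha1 in the transgenic library (95% counting interval 56 to 75.2) and 99 times in the non-transgenic library (82.8 to 119). Put as a share of the pair, Pdha1 held 1.52% of the counts in the transgenic library (exact binomial interval 1.31 to 1.75). The count of each gene is 1 number for its whole transcript, so how many of the Map3k15 reads fell in the shared 603 bases cannot be read from these data.

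Per kilobase of exon, the level of Map3k15 was 2768 counts in the transgenic and 2756 in the non-transgenic library. Its excess over Pdha1 on this scale was 42.4-fold in the transgenic (36.7 to 49.3) and 64.9-fold in the non-transgenic library (54.2 to 78.2). Pdhb, the E1 beta chain, whose protein pairs with that of Pdha1, was the subunit closest to it in level. Pdha1 had 65.3 counts per kb (56.3 to 75.4) and Pdhb 62.8 (50.8 to 76.8) in the transgenic library, and 42.5 (35.3 to 50.8) and 41 (31.4 to 52.5) in the non-transgenic library. These levels did not differ beyond their counting intervals in either library. Dld, the E3 enzyme, which other mitochondrial dehydrogenase complexes share, followed with 36.2 counts per kb in the transgenic (29.2 to 44.4) and 25.2 in the non-transgenic library (19.4 to 32.1). Dlat, the E2 enzyme that forms the core of the complex, had 24.8 (20.2 to 30.1) and 9.17 (6.46 to 12.6). Pdhx, the protein that holds E3 to the core, had 7.58 (4.56 to 11.8) and 4.39 (2.19 to 7.85). The order of the 5 subunit genes was the same in both libraries. The intervals of Dld and Dlat overlapped in the transgenic library, and those of Pdhb and Dld, and of Dlat and Pdhx, in the non-transgenic library.

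The phosphatase genes were at the bottom of the range. Pdp1, the calcium-stimulated phosphatase, had 0 counts in both libraries, which allows up to the floor of 3 counts by counting error, or 15.7 CPM in the transgenic and 17.6 CPM in the non-transgenic library. It is represented by 5 transcript accessions, whereas each of the other 7 genes has 1, and reads shared by several accessions of a gene may be left out of such counts. Pdp2 had 1 count in the transgenic and 2 in the non-transgenic library. No ratio was given for either gene, and their counts do not show whether they were expressed.

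**Figure D2:**
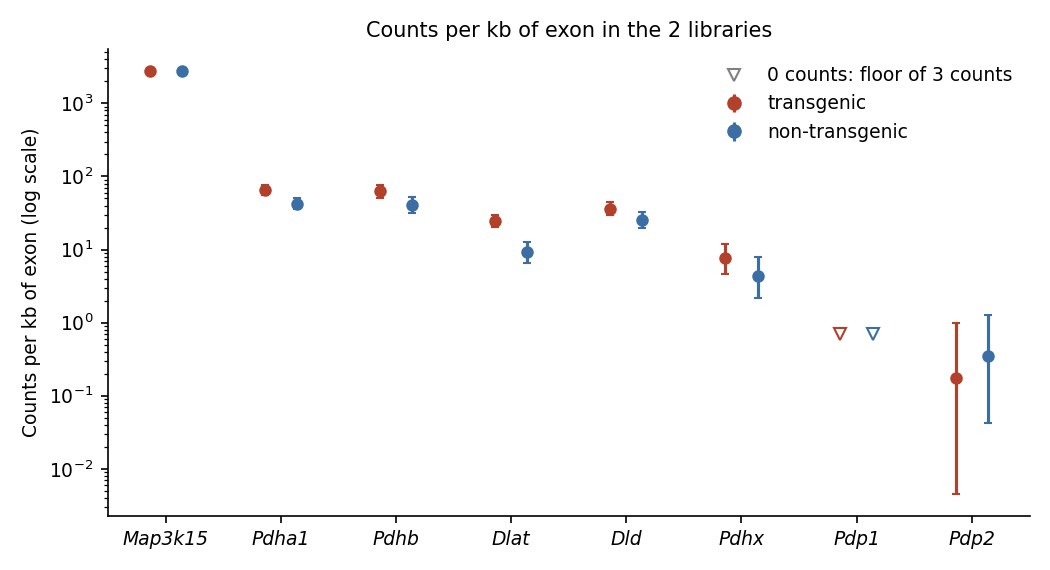
Counts per kb of exon (log scale) of the 8 genes in the transgenic and the non-transgenic library, with 95% Poisson counting intervals, and triangles at the floor of 3 counts where the count was 0. Map3k15 stands at 2768 and 2756, and the 5 subunit genes lie between 7.58 and 65.3 in the transgenic and between 4.39 and 42.5 in the non-transgenic library.

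The comparison of transgenic with non-transgenic hearts asks how transcript levels differed when the shortened cMyBP-C was present. Counts were normalised with TMM factors, and a gene counted as higher or lower when it was at least 1.5-fold apart with an interval on the same side of 1. Dlat had 100 counts in the transgenic and 37 in the non-transgenic library, a ratio of 2.15 (1.46 to 3.22), and was the only member called higher. None was called lower. A ratio required only more than 3 counts in a library, so shares over all genes take in sparsely counted ones with wide intervals. The shares among genes counted like the members were not computed. Over all 4236 genes with a ratio, 3.42% were called higher and 5.90% lower. This split turned round with the scaling, since higher calls made up 36.7% of all calls here, 54.4% with DESeq2 size factors and 62.2% on total counts. These scalings moved the ratios of all genes up by 0.11 and 0.17 (median, log2).

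The other 4 subunit genes with a ratio had intervals that held 1. Pdha1 stood at a ratio of 1.22 (0.967 to 1.55). Pdhb had 95 counts in the transgenic and 62 in the non-transgenic library, and its ratio was also 1.22 (0.875 to 1.71). Dld was counted 92 and 64 times and had a ratio of 1.14 (0.822 to 1.6). The ratio of Pdhx, from 19 and 11 counts, was 1.37 (0.621 to 3.19), with the widest interval of the subunits. All 5 ratios lay above 1, with a median log2 ratio of 0.29 against 0.05 over all genes with a ratio, and 2 of the 7 complex and phosphatase genes had too few counts for a ratio. The ratios of Pdha1 and Pdhb differed by a factor of 1 (0.663 to 1.51). The ratio of Dlat stood apart from 3 of the other 4. That of Pdha1 was 0.569 times that of Dlat (0.355 to 0.901) and that of Pdhb 0.568 times (0.334 to 0.956), while that of Dlat was 1.88 times that of Dld (1.12 to 3.18). These 3 were the only intervals leaving out 1 among the 10 subunit pairs compared, and they were not adjusted for that number. Dlat was also the only subunit gene without a gene on the opposite strand within 5 kb.

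Of 10 heart muscle markers, 6 had a ratio, and 1 was called higher and none lower. Calls of all markers stand beside 3.42% higher and 5.90% lower over all genes with a ratio. The called marker was Tnnc1, cardiac troponin C, at a ratio of 1.59 (1.39 to 1.81), while Ttn at 0.972 and Ckm at 0.921 lay below 1 and the median log2 ratio was 0.40. Their raw counts summed to 7935 in the transgenic and 4803 in the non-transgenic library. Tnnt2 and Myl3 had 0 in both, Myh6 had 1 and 0, and Mb had 0 and 1. Tnnt2 has 9 transcript accessions, Myl3 and Myh6 have 2 each and Mb has 3, so these counts carry the limit given for Pdp1. Of 5 markers of mural cells, which wrap vessels, 3 had a ratio, with a median log2 ratio of 0.67. Rgs5, a pericyte gene, was called higher at 1.92 (1.43 to 2.61) and held most of the mural counts, with 157 and 65. Acta2 at 1.59 (0.552 to 5.16) and Tagln, below 1 at 0.738 (0.416 to 1.31), were not called. Raw counts, not scaled for library size, summed to 195 and 99 for the mural markers and 16 and 10 for 5 macrophage markers. They summed to 29 and 39 for 6 fibroblast markers and 65 and 67 for 6 endothelial markers. In both of these lists 3 markers had a ratio and none was above 1. The median log2 ratio was -1.01 for fibroblast and -0.39 for endothelial markers. Col3a1, a fibroblast collagen gene with 14 and 23 counts, was called lower at 0.484 (0.23 to 0.981). The 5 erythroid markers had 0 in both libraries. In whole hearts, fewer cells of a type and less RNA per cell cannot be told apart, and the part of these markers in the subunit ratios was not tested.

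Map3k15 differed from the subunit genes in its ratio. Its raw count was nearly equal in the libraries, and after normalisation it stood at 0.799 (0.779 to 0.819) in the transgenic over the non-transgenic library, a log2 ratio of -0.32. The ratio of Map3k15 was 0.653 times that of Pdha1 (0.515 to 0.827), a log2 difference of -0.61 that does not depend on the scaling. It was 0.656 times that of Pdhb (0.468 to 0.913), 0.699 times that of Dld (0.499 to 0.973) and 0.372 times that of Dlat (0.248 to 0.548). Against Pdhx the factor was 0.582 and its interval held 1 (0.250 to 1.29). These values compare 2 libraries, not genotypes. For genes that reached 30 counts over both libraries, the median log2 ratio was -0.26 in the 795 that share exonic bases with a gene on the other strand, 0.06 in 302 with such an exon within 5 kb and 0.18 in 237 with none. Pdha1, which is in the first of these classes with Map3k15, had a log2 ratio of 0.29. Pdhb at 0.28, Pdhx at 0.46 and Dld at 0.19 are in the second class, and Dlat at 1.10 is in the last.

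**Figure D3:**
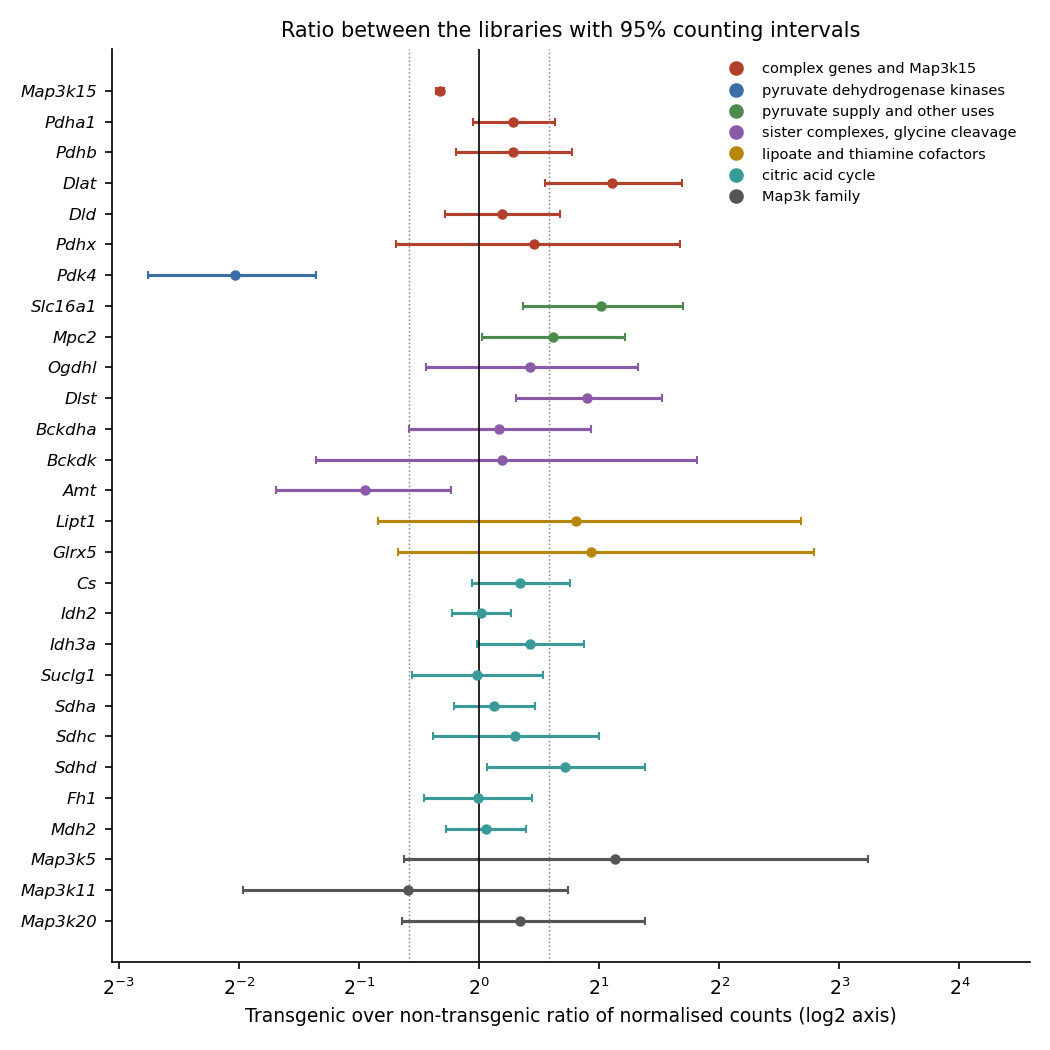
Transgenic over non-transgenic ratio of TMM-normalised counts (log2 axis) with 95% counting intervals, for genes of the complex, Map3k15 and listed pathway genes with more than 3 counts in both libraries. The solid line marks 1 and dotted lines mark 1.5-fold either way. Dlat at 2.15 and Pdk4 at 0.245 lie beyond these lines on opposite sides, and Map3k15 at 0.799 has the narrowest interval.

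Map3k15 and Pdha1, which were chosen by these counts, formed the most unequal of the pairs compared. Pairs in which a gene had fewer than 30 counts summed, such as Myl2 and Ccdc63, were left out of this comparison. Among 111 pairs of overlapping genes on opposite strands, each gene with at least 30 counts summed, the count of the larger was a median of 3.12 times that of the smaller, and Map3k15 over Pdha1 was the highest at 78.2 with both libraries summed. Over all 111 pairs, the larger gene had the lower ratio in 66 (59.5%), with a median log2 difference of -0.09. In 24 of these pairs the larger gene had at least 10 times the counts of the smaller. In 19 of the 24 (79.2%) the larger gene had the lower ratio. The median log2 difference of the 24 was -0.49, and 9 had a lower one than the -0.61 of Map3k15 and Pdha1. Among the most counted pairs, the non-coding RNA gene A930016O22Rik had 17.7 times the counts of the muscle creatine kinase gene Ckm in the transgenic and 21.3 times in the non-transgenic library. Prpf39, a splicing factor gene, had 18.3 and 33.4 times those of Fkbp3, an immunophilin gene. In both pairs, as for Map3k15 over Pdha1, the excess was smaller in the transgenic library, and the ratio of the larger gene was 0.831 times that of the smaller for Ckm (0.714 to 0.966) and 0.547 times for Fkbp3 (0.403 to 0.738). Another of the 5 most counted pairs went the other way round. There the cardiac gene Myl2 held the counts, and Ccdc63, which shares 60 bases with it, had 0 in the transgenic and 1 in the non-transgenic library.

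**Figure D4:**
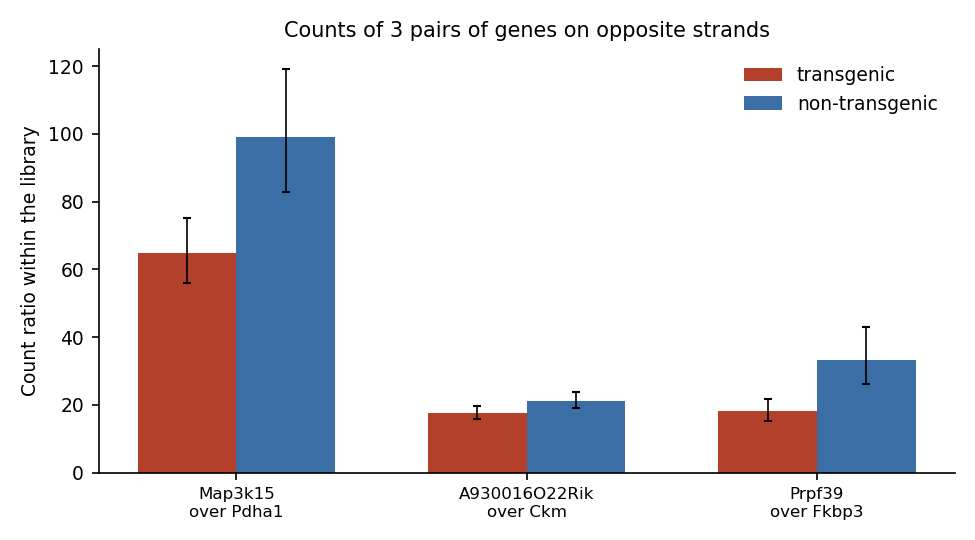
Count of the larger gene over that of the smaller within each library, for 3 of the 5 most counted pairs of overlapping genes on opposite strands, with 95% counting intervals (Myl2 over Ccdc63 has no ratio). Map3k15 over Pdha1 stands at 64.7 in the transgenic and 99 in the non-transgenic library, and the other pairs between 17.7 and 33.4.

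The genes whose ratio was nearest to that of Map3k15, among 53 others that reached 1000 counts over both libraries, included 1110051M20Rik, Eml5, Ppifos and an accession with no gene name in the tables used. Their log2 ratios were within 0.02 of that of Map3k15, a likeness over only 2 libraries. The 3 named genes each overlap a gene on the opposite strand, as did 42 of the 54 genes at that level of counts. Ppifos lies opposite Ppif, which encodes cyclophilin D of the mitochondrial permeability pore. Ppifos had 549 counts in the transgenic and 554 in the non-transgenic library, against 14 and 15 for Ppif. 1110051M20Rik lies opposite Arfgap2 and Eml5 opposite Zc3h14. Arfgap2 and Zc3h14 had 0 counts in both libraries, which does not show whether they were expressed. Eml5 also shares 301 bases with Gm48062, for which no count was available.

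No other gene of the complex overlapped an exon on the opposite strand. The gene Pxk lies 878 bases from Pdhb and Apip lies 161 bases from Pdhx, and both had 0 counts in each library, as had Cdh16, which lies 2884 bases from Pdp2. Pxk has 6 accessions and Apip and Cdh16 have 3 each, so their zeros carry the same limit as that of Pdp1. Lamb1, a laminin gene 1632 bases from Dld, had 47 counts in the transgenic and 42 in the non-transgenic library. 1700123M08Rik, 112 bases from Pdp1, had 1 and 2. 

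Of the 4 kinase genes that switch the complex off, Pdk4 alone had a ratio and it was called lower. Over all genes with a ratio, 5.90% were called lower. Pdk4, which is induced by fasting and fatty acids, had 24 counts in the transgenic and 78 in the non-transgenic library, 4.09-fold lower (2.56 to 6.76). Pdk2, the widely expressed kinase, had 0 and 3 counts, Pdk3 had 0 and 1, and Pdk1 had 0 in both. Pdk1 and Pdk2 have 2 transcript accessions each, so their counts carry the limit given for Pdp1 and do not show whether they were expressed. Pdpr, which restrains the phosphatase, had 4 and 1, a ratio of 3.18 (0.315 to 157). The testis form of E1 alpha, Pdha2, had 0 in both libraries.

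Of 8 genes of pyruvate supply and use, 2 had a ratio and both were called higher, as were 3.42% of all genes with a ratio. Mpc2, a subunit of the mitochondrial pyruvate carrier, had 73 counts in the transgenic and 38 in the non-transgenic library, a ratio of 1.53 (1.02 to 2.32), and this call ended under upper-quartile scaling at 1.49 (0.996 to 2.27). Slc16a1, a lactate and pyruvate transporter of the plasma membrane, had 71 and 28, a ratio of 2.02 (1.29 to 3.24). Their median log2 ratio was 0.81.

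The sister complexes use the same chemistry, and Dld serves them too. Of 12 genes of these complexes and of glycine cleavage, 5 had a ratio, with a median log2 ratio of 0.18. Of these, 1 was called higher, 1 lower and 3 neither. The shares over all genes with a ratio were 3.42% higher and 5.90% lower. Dlst, the E2 enzyme of the 2-oxoglutarate dehydrogenase complex and the counterpart of Dlat, had 80 counts in the transgenic and 34 in the non-transgenic library, a ratio of 1.87 (1.24 to 2.88). Amt, the aminomethyltransferase of glycine cleavage, was 1.93-fold lower (1.17 to 3.23) with 28 and 43 counts. Lipt1, which transfers the lipoyl group that E2 enzymes need, had 11 and 5 counts, a ratio of 1.75 (0.560 to 6.42). For Glrx5, an iron-sulfur cluster protein, 12 and 5 counts gave a ratio of 1.91 (0.626 to 6.91). They were the only 2 of 9 cofactor genes with a ratio, and neither was called. The median over both was 0.87 on the log2 scale.

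Downstream, 11 of the 15 citric acid cycle genes had a ratio. Their median log2 ratio was 0.13, against 0.29 for the subunit genes, and the ranges of both sets overlapped. Of the 11, 1 was called higher and none lower, against 3.42% and 5.90% of all genes with a ratio. The called gene was Sdhd, a membrane anchor of succinate dehydrogenase, with 64 counts in the transgenic and 31 in the non-transgenic library and a ratio of 1.64 (1.05 to 2.61). Cs, citrate synthase, which takes up the acetyl-CoA that the complex makes, had 134 and 84 counts, a ratio of 1.27 (0.958 to 1.69). Idh2, the most counted gene of the list, had 324 and 254, a ratio of 1.01 (0.858 to 1.20).

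Relatives of Map3k15 had low counts. Of 17 other Map3k genes 4 had a ratio and none was called, with a median log2 ratio of 0.74. Their counts summed to 63 in the transgenic and 39 in the non-transgenic library. Map3k20 was the most counted with 24 and 15, a ratio of 1.27 (0.641 to 2.61). Map3k11, a mixed-lineage kinase gene, followed with 10 and 12, a ratio of 0.663 (0.256 to 1.67), the only one of the 4 below 1. Map3k5, which encodes the related kinase ASK1, had 11 and 4, a ratio of 2.19 (0.648 to 9.42).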

How the data were processed

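Poly-A RNA of 3 hearts combined was sequenced in 1 library per group. The deposited values are raw counts per RefSeq transcript accession, and STAR, HTSeq and mm10 are named in the submitters' processing notes. Their versions, the annotation and the strand setting are not given in the sources used. A RefSeq gene table gave names to 41252 of the 41449 accessions and GENCODE release M21 to 99 more, after which counts were summed into 25004 genes. Coordinates come from GENCODE M21 (GRCm38, or mm10) and cover 24670 genes.

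Library sizes were normalised with TMM in edgeR 4.0.16 (factors 1.06 transgenic, 0.943 non-transgenic; R 4.3.3). With 1 library per group no test or p-value was computed, although the design table spoke of edgeR's quasi-likelihood test as needing replicates. Ratios have exact 95% Clopper-Pearson counting intervals, ratios of ratios have exact conditional intervals (scipy 1.17.1), and levels have exact Poisson intervals. PCR reads are not independent molecules, so intervals and floors cover counting error only. A ratio required more than 3 counts in a library, and a count of 0 in 1 of the libraries was replaced by 3. The calculations were tested on simulated data. The members and lists were chosen with earlier results of these data known. The text names all members, their neighbours on the opposite strand within 5 kb, the 5 most counted opposite pairs, the 5 genes most like Map3k15, every kinase, and called or else the 2 most counted list members. Some genes chosen this way are not reported here. Genes added to these after their values were seen are Pdha2, Pdpr, Cs, Idh2, Idh3a, Map3k5, Ldha, Ldhb, Pkm, Ogdh, Mpc1, 4930506C21Rik and the markers named.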

Additional observations from a re-analysis of the deposited data

How the results depend on the processing

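No paired analysis was possible because each group is 1 library. Leaving out a library was not possible for the same reason. Of 115 alternative values, 103 stayed within the counting interval of the main value, within 1.5 times a main count or, for the median, within 0.01. Some of these runs could hardly move a value, so this tally overstates how far the results were challenged. Each member with a ratio has 1 transcript accession, so taking its most counted accession could not change its ratio. Leaving Map3k15 out hardly moved the library scaling. The sign of no member's ratio turned under any alternative run, and 1 member was called higher under each of them. The ratio of Map3k15 was 0.861 with DESeq2 size factors and 0.898 on total counts, against 0.799. The median log2 ratio of the complex and phosphatase genes was 0.40 with DESeq2 size factors, 0.46 on total counts and 0.26 with upper-quartile scaling. Under upper-quartile scaling 1 gene of pyruvate supply was called higher, without Mpc2 at 1.49, and on total counts 2 citric acid cycle genes were, with Idh3a at 1.51. Counts per kb gave 42.4 and 64.9 for Map3k15 over Pdha1 in the transgenic and the non-transgenic library. Over all genes, 218 were called higher with DESeq2 size factors and 244 on total counts, against 145, and 148 lower on total counts, against 250. Scaling moves all genes alike, which is its construction. The counts of the phosphatase genes, of Pdhx and of 3 of the 4 kinases were at most 19 in each library, and what set them was not tested.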

Other observations

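Many genes of pyruvate metabolism that the heart is known to use had no counts, and they were mostly genes with several transcript accessions. Over all pathway lists together, 22 of 30 genes with several accessions had 0 counts in both libraries and 2 had a ratio. Of 37 genes with 1 accession, 4 had 0 in both and 24 had a ratio. These lists also hold Pdha2, the testis form, and 17 Map3k genes. Of the Map3k genes, 6 had 0 in both libraries, 5 of them with several accessions. Ldha and Ldhb, the lactate dehydrogenase chains, and Ogdh, the E1 enzyme of the 2-oxoglutarate complex, had 0 counts in both libraries, and Pkm, the muscle pyruvate kinase, had 1 in each. The part of the number of accessions in these counts was not tested. The same shares over all genes are not given here, so these zeros cannot be called particular to pyruvate metabolism. Mpc1, the partner of Mpc2 in the pyruvate carrier, has 4 accessions and had 0 counts in both libraries. The gene on its opposite strand, 4930506C21Rik, had 47 counts in the transgenic and 24 in the non-transgenic library. Its ratio was 1.56, with an interval that held 1 (0.933 to 2.66).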
